A study of Mus musculus with 6 samples.

Results

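The genes described are 9 synaptic adhesion genes of mouse cortical neurons, Nrxn2, Nrxn3, Nlgn1, Nlgn2, Nlgn3, Lrrtm1, Lrrtm2, Cntnap2 and Il1rapl1, chosen by name from the 31053 genes listed in the deposited tables. All 9 were listed, and 8 of the 9 carried edits in every library. Neurexins sit on the presynaptic membrane and bind partners on the facing dendrite, among them the neuroligins and the LRRTM proteins, and these bridges align and specify synapses. Cntnap2 encodes CASPR2, a relative of the neurexins that gathers potassium channels on axons, and Il1rapl1 encodes a postsynaptic receptor that binds the presynaptic LAR-type phosphatase PTPδ.

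The measurement was Ribo-STAMP, in which the cytidine deaminase APOBEC1 is fused to a ribosomal protein so that C-to-U edits mark RNAs in contact with ribosomes. Primary cortical neurons from wild-type (WT) C57BL/6J mouse embryos at embryonic day 18 were infected at day in vitro 6 with adeno-associated virus carrying either APOBEC1 joined to mouse RPL10A (RPL10A-STAMP, 3 libraries) or APOBEC1 joined to mouse RPL22 (RPL22-STAMP, 3 libraries). In both groups the transactivator of the Tet-On vector was under the human synapsin promoter, the neurons were grown with floxuridine, which stops dividing cells, and expression was switched on with doxycycline at 1 µg/ml for 48 h before collection at day in vitro 14. The authors describe 3 biological replicates of RNA per variant, but call the replicates technical where they correlate EPR between them. No library without an editor was analysed here, so the background without fusion protein is not known. The side of APOBEC1 that was fused differed as well, so the ribosomal protein and the orientation of the fusion cannot be told apart.

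The deposited value is EPR, the number of edits in a gene divided by the reads of that gene. The read and edit counts behind it were not used here, so the depth of each value is unknown and an EPR of 0 can stand for no edits or no reads. Between 9892 and 11195 genes had an EPR above 0 in a library. Of these genes 8046 were edited throughout all 6 libraries, and their median EPR was 0.0120, 0.0153 and 0.0161 in RPL10A-STAMP replicates 1 to 3 and 0.00907, 0.0129 and 0.0112 in RPL22-STAMP replicates 1 to 3. For the comparison each library was therefore divided by its median and brought to a common level, called scaled EPR. Cell type markers were looked at as well. EPR divides edits by reads, so these values describe editing of the marker RNAs and not how many cells of a type were present. All 8 neuronal markers were edited in every library, with a summed EPR of 0.146 to 0.169 in the RPL10A-STAMP and 0.142 to 0.172 in the RPL22-STAMP libraries. Of 6 astrocyte markers 4 were edited in every library, with sums of 0.188 to 0.238 and 0.109 to 0.257, and none passed the limma test between variants, with 0 at an unadjusted p below 0.05. Of 7 oligodendrocyte-lineage markers 1 was edited in every library, and Mog and Cspg4 were listed at 0 throughout, with sums of 0.0175 to 0.115 and 0.0762 to 0.0957. None of 6 microglial markers was edited in every library, and Csf1r, Aif1 and P2ry12 were listed at 0 throughout, with sums of 0 to 0.0143 and 0 to 0.0714. Of the 8 neuronal markers, Syn1 and Gad2 passed the limma test and were higher with RPL22-STAMP. Of all tested genes 14.3% passed, and 5.77% passed with the higher value for RPL22-STAMP. The part of these markers in the results below was not tested.

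Il1rapl1, Nlgn1 and Nrxn2 differed between the variants by limma at a Benjamini-Hochberg adjusted p below 0.05. Il1rapl1 and Nlgn1 had the higher scaled EPR with RPL10A-STAMP and Nrxn2 with RPL22-STAMP. That was 3 of the 8 tested genes, against 14.3% of all 8046 genes tested, made up of 8.51% with the higher value for RPL10A-STAMP and 5.77% for RPL22-STAMP. The genes were chosen with earlier results of these data known, so their share is a description and not a test of the group. In scaled EPR the variants were separated without overlap for 5 of the 8, where 37.1% of all tested genes were. These were Il1rapl1, Nlgn1 and Lrrtm2 with RPL10A-STAMP above (20% of all tested genes) and Nrxn2 and Nlgn2 with RPL22-STAMP above (17.1%). In EPR as deposited 4 of the 8 were separated, where 34.4% of all tested genes were, and in each RPL10A-STAMP was above (28.2% of all tested genes, against 6.21% with RPL22-STAMP above). All 3 calls were lost once the trend of EPR with transcript GC content was removed from each library, as given with the GC values below. Fold changes are log2 differences of scaled EPR + 0.01, RPL10A-STAMP over RPL22-STAMP, a scale on which changes at low EPR come out too small.

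**Figure D1:**
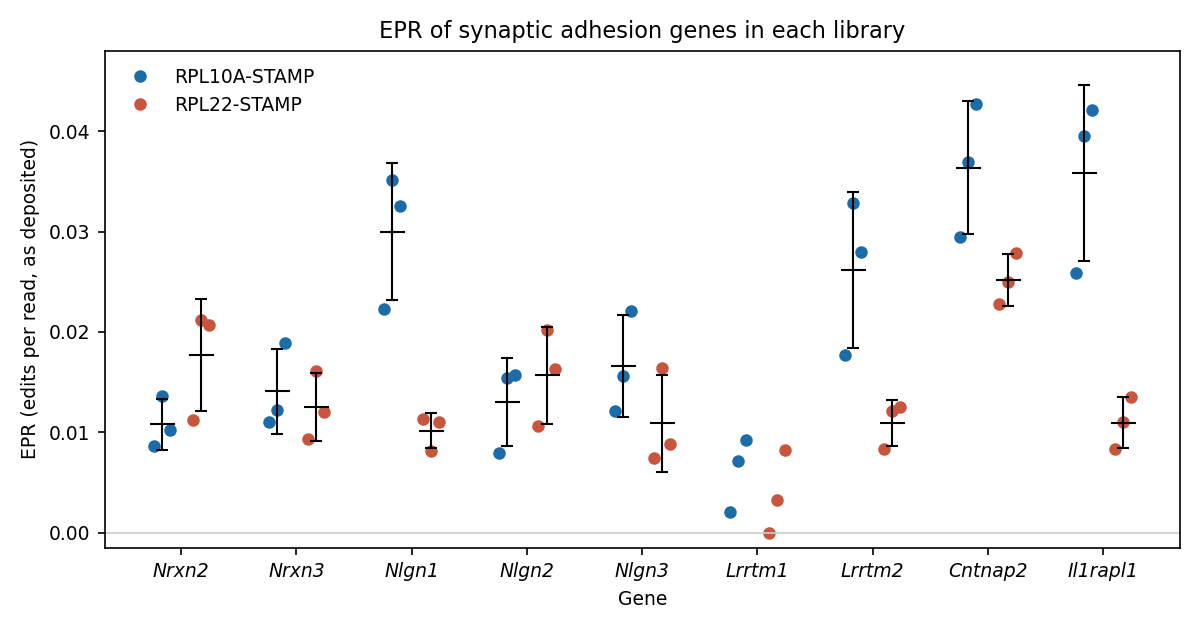
EPR as deposited (vertical axis, edits per read) of the 9 genes (horizontal axis) in each of 3 RPL10A-STAMP libraries (blue) and 3 RPL22-STAMP libraries (red). Bars give the mean ± SD of the 3 libraries, left out for Lrrtm1, which was listed at 0 in RPL22-STAMP replicate 1. The blue points lie above all red points for Nlgn1, Lrrtm2, Cntnap2 and Il1rapl1 and mix with them for Nrxn2, Nrxn3, Nlgn2, Nlgn3 and Lrrtm1.

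Among the presynaptic receptors, Nrxn2 (ENSMUSG00000033768, GRCm38 chromosome 19, plus strand, 6418731 to 6544169) encodes neurexin-2, made in long alpha and short beta forms. Its EPR was 0.00863, 0.0136 and 0.0102 in RPL10A-STAMP replicates 1 to 3 and 0.0113, 0.0211 and 0.0207 in RPL22-STAMP replicates 1 to 3. As deposited, RPL22-STAMP replicate 1 lay inside the range of the RPL10A-STAMP libraries, and the difference of the means, 0.0108 ± 0.00253 against 0.0177 ± 0.00559 (SD, n = 3 each), had a 2-sided exact permutation p of 0.2. After scaling, the RPL22-STAMP libraries (0.0156, 0.0205 and 0.0231) lay above all RPL10A-STAMP libraries (0.00904, 0.0111 and 0.00794), 2.11-fold by the means. The log2 fold change was -0.61 (SE 0.15, 95% interval -0.97 to -0.26, limma adjusted p = 0.0398). The call rested on the scaling, since without a library factor the log2 fold change was -0.40 with a limma adjusted p of 0.255. It was also lost with the replicate number as a block (adjusted p = 0.082 by limma). It held without RPL22-STAMP replicate 1 (limma adjusted p = 0.0370) and was lost without any other single library, where the adjusted p reached 0.131. Of the exonic bases of Nrxn2, 6.44% overlapped exons on the opposite strand (Gm14964 and Slc22a12), and the strand setting of the read counting is not given in the sources used here.

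Nrxn3 (ENSMUSG00000066392, chromosome 12, plus strand, 88722876 to 90334935) encodes neurexin-3. Its EPR of 0.0111, 0.0122 and 0.0189 in RPL10A-STAMP libraries and 0.00936, 0.0162 and 0.0121 in RPL22-STAMP libraries overlapped between the variants, as did the scaled values. The fitted log2 fold change was -0.12 (SE 0.14, 95% interval -0.45 to 0.20, limma adjusted p = 0.587), and its sign turned to 0.09 without a library factor. The interval leaves room for a difference of 0.45 in favour of RPL22-STAMP on this scale.

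Within a library the ratio of the 2 neurexins does not depend on the scaling. The log2 ratio of Nrxn2 over Nrxn3 was -0.36, 0.15 and -0.89 in the RPL10A-STAMP libraries and 0.27, 0.39 and 0.78 in the RPL22-STAMP libraries. Every RPL22-STAMP library had more editing per read on Nrxn2 than on Nrxn3, and the ranges of the variants did not overlap. The means were -0.37 ± 0.52 and 0.48 ± 0.27 (SD, n = 3 each), a difference of -0.84 between variants. The transcripts differ in GC content, 61.8% for Nrxn2 and 47.5% for Nrxn3, and how often other pairs of genes separate was not examined.

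Neuroligins are the postsynaptic partners of the neurexins, with Nlgn1 known mainly from excitatory synapses, Nlgn2 from inhibitory synapses and Nlgn3 from either kind. Their proteins are close relatives. In the longest GENCODE coding sequences Nlgn1 and Nlgn2 shared 69.4% of 790 aligned residues, Nlgn1 and Nlgn3 shared 72.7% of 810, and Nlgn2 and Nlgn3 shared 67.7% of 803. The RNAs that encode the same residues differed in the substrate of the editor, cytosine. At the 478 residues that were identical in all 3 proteins, cytosine made up 23.4% of the bases in Nlgn1, 32.9% in Nlgn2 and 29.1% in Nlgn3, and the third base of the codon was a cytosine in 22.4%, 46.0% and 36.0% of the codons. A pair of 10-residue stretches shared by the 3 proteins is given as the coding strand 5′ to 3′ (GRCm38, GENCODE), with every cytosine in capitals. They were chosen as the earliest 2 of 11 stretches of 10 identical residues that lie within an exon in each gene, whatever their editing, and the deposited values do not say which bases were edited.
Nlgn1, chr3:25912721-25912750, minus strand: CatggCggCtCttaCatggaaggtaCtgga
Nlgn2, chr11:69828444-69828473, minus strand: CaCggCggCtCCtaCatggaaggCaCCggg
Nlgn3, chrX:101308798-101308827, plus strand: CaCggaggCtCttaCatggaaggaaCaggC
Nlgn1, chr3:25440046-25440075, minus strand: ttCttgagCaCaggggatCaggCtgCCaaa
Nlgn2, chr11:69828172-69828201, minus strand: tttCtCagCaCtggtgaCCaggCtgCaaaa
Nlgn3, chrX:101315134-101315163, plus strand: ttCCtgagCaCtggagatCaggCtgCCaag
The earlier stretch held 6 cytosines in Nlgn1, 10 in Nlgn2 and 7 in Nlgn3. The later stretch held 7, 8 and 8, so the difference was clear only in the earlier one.

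Nlgn1 (ENSMUSG00000063887, chromosome 3, minus strand, 25426215 to 26332460) had an EPR of 0.0222, 0.0351 and 0.0326 in RPL10A-STAMP replicates 1 to 3 and of 0.0113, 0.00816 and 0.0111 in RPL22-STAMP replicates 1 to 3. The RPL10A-STAMP values were all above the RPL22-STAMP values, as deposited and after scaling. The means were 0.0300 ± 0.00682 and 0.0102 ± 0.00175 (SD, n = 3 each), 2.95-fold apart as deposited and 2.16-fold after scaling, with an exact permutation p of 0.1, the smallest that 3 libraries against 3 can give. The log2 fold change was 0.72 (SE 0.17, 95% interval 0.32 to 1.12, limma adjusted p = 0.0339). The call held without RPL22-STAMP replicate 1 (limma adjusted p = 0.0332) and was lost without any other single library, with the adjusted p up to 0.108. It was lost with the replicate number as a block (limma adjusted p = 0.083) and with the trend of EPR with transcript length removed (log2 fold change 0.50, limma adjusted p = 0.110) as well. Exons on the opposite strand (A830092H15Rik) covered 9.16% of its exonic bases.

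Nlgn2 (ENSMUSG00000051790, chromosome 11, minus strand, 69823122 to 69837784) had an EPR of 0.00796, 0.0154 and 0.0157 in RPL10A-STAMP libraries and 0.0106, 0.0201 and 0.0163 in RPL22-STAMP libraries. The deposited values overlapped, while after scaling the RPL22-STAMP libraries (0.0146, 0.0196 and 0.0182) all lay above the RPL10A-STAMP libraries (0.00833, 0.0127 and 0.0122), 1.58-fold by the means. A log2 fold change of -0.39 (SE 0.15, 95% interval -0.74 to -0.03) did not pass the test over all genes (limma adjusted p = 0.131).

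Nlgn3 (ENSMUSG00000031302, chromosome X, plus strand, 101299168 to 101325963) had an EPR of 0.0121, 0.0156 and 0.0221 in RPL10A-STAMP libraries and 0.00747, 0.0164 and 0.00881 in RPL22-STAMP libraries. Its libraries overlapped on either scale. The log2 fold change was 0.14 (SE 0.16, 95% interval -0.24 to 0.52, limma adjusted p = 0.588), and it was -0.01 with the trend of EPR with transcript length removed.

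Ratios between neuroligins within a library separated the variants as well. The log2 ratio of Nlgn2 over Nlgn1 within a library was -1.48, -1.19 and -1.05 in the RPL10A-STAMP and -0.09, 1.30 and 0.56 in the RPL22-STAMP libraries. The inhibitory-synapse neuroligin had the lower EPR in all 3 RPL10A-STAMP libraries, and the RPL22-STAMP libraries ran from near equality to a higher EPR of Nlgn2, all above the RPL10A-STAMP range. The means were -1.24 ± 0.22 and 0.59 ± 0.70 (SD, n = 3 each), a difference of -1.83. EPR is not a value per length, and Nlgn1 has 13422 exonic bases against 5785 for Nlgn2. Per kb of exonic sequence every log2 ratio of this pair would rise by 1.21, with the same difference between variants. Nlgn2 would then no longer be the lower gene in RPL10A-STAMP replicates 2 and 3. For Nlgn2 over Nlgn3 the ratios of EPR were -0.61, -0.02 and -0.49 in RPL10A-STAMP libraries and 0.50, 0.30 and 0.89 in RPL22-STAMP libraries, again without overlap, and the variants differed by -0.94. Per kb these ratios would rise by 0.68, so that Nlgn2 would be the higher gene in the RPL10A-STAMP libraries too. For Nlgn3 over Nlgn1 the means of -0.87 ± 0.31 and 0.03 ± 0.86 (SD, n = 3 each) came from ranges that overlapped. No test was made on these ratios, which use the same libraries as the fits above. How often other pairs of genes separate was not examined, and 37.1% of all single tested genes did in scaled EPR. The transcripts also differ in GC content, with 38.9% for Nlgn1, 49.3% for Nlgn3 and 60.7% for Nlgn2. The part of GC content in the ratios was not tested.

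**Figure D2:**
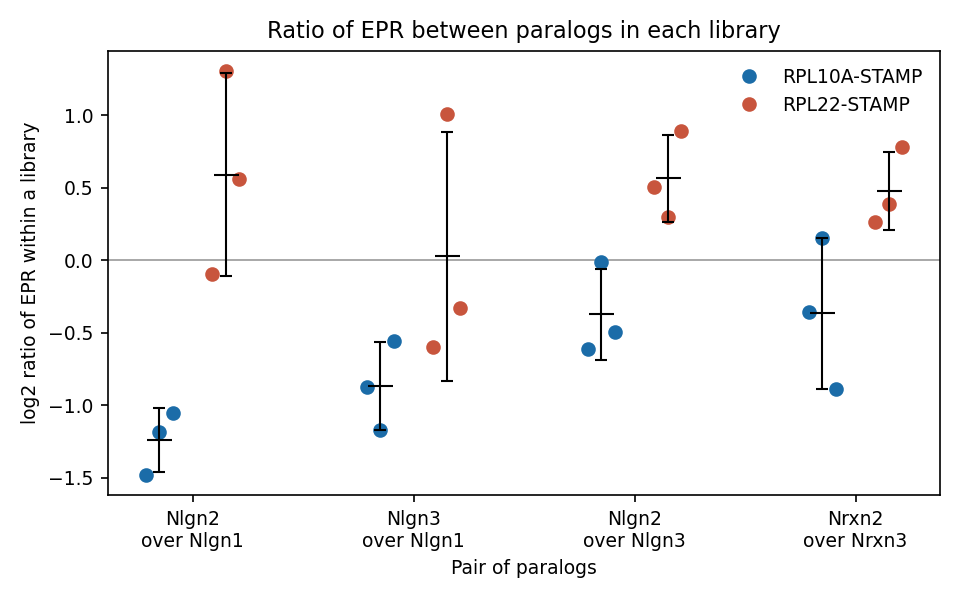
Log2 ratio of EPR between paralogs within a library (vertical axis) for 4 pairs of genes (horizontal axis), with a point for each of 3 RPL10A-STAMP (blue) and 3 RPL22-STAMP (red) libraries and bars for the mean ± SD. Blue and red points separate for Nlgn2 over Nlgn1, Nlgn2 over Nlgn3 and Nrxn2 over Nrxn3, and mix for Nlgn3 over Nlgn1. The ratios are not per length, and how often other pairs of genes separate was not examined.

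The LRRTM proteins are leucine-rich repeat receptors of excitatory synapses that also bind neurexins. Lrrtm2 (ENSMUSG00000071862, chromosome 18, minus strand, 35209003 to 35215024) had an EPR of 0.0177, 0.0329 and 0.0279 in RPL10A-STAMP replicates 1 to 3 and of 0.00834, 0.0121 and 0.0125 in RPL22-STAMP replicates 1 to 3. All RPL10A-STAMP libraries lay above all RPL22-STAMP libraries on either scale, with means of 0.0262 ± 0.00775 and 0.0110 ± 0.00229 (SD, n = 3 each), 2.38-fold apart as deposited and 1.81-fold after scaling. Its log2 fold change was 0.53 (SE 0.15, 95% interval 0.18 to 0.87), and with a limma adjusted p of 0.0566 it missed the threshold. Lrrtm1 (ENSMUSG00000060780, chromosome 6, plus strand, 77242689 to 77257791) was listed at 0 in RPL22-STAMP replicate 1 and was not tested in the main fit. Its other values were 0.00206, 0.00710 and 0.00926 in RPL10A-STAMP libraries and 0.00325 and 0.00825 in RPL22-STAMP replicates 2 and 3, which overlapped. In a fit of genes edited in at least 3 libraries its log2 fold change was 0.13 (SE 0.28, limma adjusted p = 0.829). Lrrtm1 was below Lrrtm2 in every library, with a log2 ratio of -3.10, -2.21 and -1.59 with RPL10A-STAMP and of -1.90 and -0.60 in the 2 RPL22-STAMP libraries where Lrrtm1 was edited. Lrrtm2 has 6022 exonic bases against 3033 for Lrrtm1. Per kb the log2 ratios would rise by 0.99, which would put Lrrtm1 above Lrrtm2 in RPL22-STAMP replicate 3.

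Il1rapl1 (ENSMUSG00000052372, chromosome X, minus strand, 86740870 to 88115645), whose human counterpart is known from X-linked intellectual disability, had the largest fold change of the 8 tested genes. Its EPR was 0.0258, 0.0395 and 0.0421 in RPL10A-STAMP replicates 1 to 3 and 0.00838, 0.0110 and 0.0135 in RPL22-STAMP replicates 1 to 3. The lowest RPL10A-STAMP library was above the highest RPL22-STAMP library on either scale. The means were 0.0358 ± 0.00875 and 0.0110 ± 0.00256 (SD, n = 3 each, exact permutation p = 0.1), 3.27-fold apart as deposited and 2.47-fold after scaling. On the log2 scale the difference was 0.86 (SE 0.14, 95% interval 0.53 to 1.20, limma adjusted p = 0.0116). The call held in 15 of 19 alternative settings, the replicate block among them (limma adjusted p = 0.038), and was lost without RPL10A-STAMP replicate 2 (adjusted p = 0.0502 by limma) or replicate 3 (adjusted p = 0.0558 by limma).

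Cntnap2 (ENSMUSG00000039419, chromosome 6, plus strand, 45059357 to 47304213) had the highest mean EPR of the 9 genes with either variant. Its EPR was 0.0295, 0.0369 and 0.0427 in RPL10A-STAMP libraries and 0.0227, 0.0249 and 0.0279 in RPL22-STAMP libraries. The deposited values were higher in every RPL10A-STAMP library, 1.44-fold by the means (exact permutation p = 0.1), and after scaling the libraries overlapped. Its log2 fold change was 0.10 (SE 0.14, 95% interval -0.23 to 0.42, limma adjusted p = 0.681) and turned below 0 with quantile normalization (-0.0096) and with the trend with transcript length (-0.09) or GC content (-0.10) removed.

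Among the edited genes of a library, Cntnap2 stood between percentiles 80.7 and 87.6 in all 6 libraries. Il1rapl1 stood at percentiles 82.0, 85.6 and 86.1 with RPL10A-STAMP and at 45.7, 43.8 and 57.9 with RPL22-STAMP, close to Cntnap2 with the former variant and well below it with the latter. Nlgn1 stood at 77.4, 82.8 and 79.6 and at 61.3, 29.6 and 48.6. Nrxn2 took the opposite course, from 34.8, 45.8 and 31.2 with RPL10A-STAMP to 61.1, 75.0 and 76.8 with RPL22-STAMP. In order of mean EPR the genes ran Cntnap2, Il1rapl1, Nlgn1, Lrrtm2, Nlgn3, Nrxn3, Nlgn2 and Nrxn2 with RPL10A-STAMP, and among these only the step from Lrrtm2 to Nlgn3 (0.00955) exceeded the larger SD of the neighbours (0.00775). With RPL22-STAMP the order was Cntnap2, Nrxn2, Nlgn2, Nrxn3, Lrrtm2, Il1rapl1, Nlgn3 and Nlgn1, and among these only the step from Cntnap2 to Nrxn2 (0.00749) exceeded the larger SD (0.00559). Lrrtm1 came last in either order. EPR divides edits by reads of the same exons but is not a value per length. Per kb of exonic sequence the mean EPR over all 6 libraries ran from 0.00308 for Lrrtm2 and 0.00300 for Cntnap2 to 0.00106 for Nrxn3 and 0.00103 for Nrxn2.

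By the root mean square difference of scaled log2(EPR + 0.01) over the 6 libraries, the tested gene nearest to Nrxn2 was Mark2 (0.0764), to Nrxn3 B4gat1 (0.0748), to Nlgn1 Smarca5 (0.104) and to Nlgn2 Atp8a2 (0.0782). The nearest gene to Nlgn3 was Skil (0.0872), to Lrrtm1 Enox1 (0.149), to Lrrtm2 Bloc1s6 (0.0609), to Cntnap2 Rnf11 (0.0519) and to Il1rapl1 Mospd2 (0.125). Among the adhesion genes themselves Nrxn2 and Nlgn2 were nearest to each other (0.166), as were Nrxn3 and Nlgn3 (0.157) and Nlgn1 and Lrrtm2 (0.196). Such distances were common. Within 0.2 lay 88 tested genes for Nrxn2, 125 for Nlgn2, 266 for Nrxn3, 162 for Nlgn3, 54 for Nlgn1 and 113 for Lrrtm2.

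The fold changes ran against the GC content of the transcripts. GC content of the transcript with the longest coding sequence was 36.2% for Il1rapl1, 38.4% for Lrrtm2 and 38.9% for Nlgn1, the 3 genes with the largest positive fold changes. It was 44.5% for Cntnap2, 47.5% for Nrxn3, 49.3% for Nlgn3 and 54.7% for the untested Lrrtm1. It was 60.7% for Nlgn2 and 61.8% for Nrxn2, the genes with the most negative fold changes. Across the 8 tested genes Pearson's r of log2 fold change with GC content was -0.95 and Spearman's rho -0.905, as a description of genes measured in the same 6 libraries. The direction was shared by the other 69 tested genes of a list of synaptic adhesion genes (rho -0.655) and by all 8039 tested genes with a transcript (rho -0.467). Of these, the 804 with the lowest GC content had a median log2 fold change of 0.38, and the 804 with the highest had -0.32. The relation of EPR itself to GC content across the 9 genes differed between the variants, with Spearman's rho of -0.80, -0.75 and -0.82 in the RPL10A-STAMP libraries and of 0, 0.40 and 0.05 in the RPL22-STAMP libraries. EPR is not per length here, and Lrrtm1 entered at 0 in RPL22-STAMP replicate 1. The same coefficients over all genes were not computed, so this difference cannot be called particular to the 9 genes.

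When the trend of EPR with GC content over all genes was removed from each library, none of the 8 genes passed the test by limma, and 1 (Il1rapl1) had an unadjusted p below 0.05. Il1rapl1 had a log2 fold change of 0.35 (limma adjusted p = 0.172), Nlgn1 of 0.30 (limma adjusted p = 0.292), Lrrtm2 of 0.09 (limma adjusted p = 0.739), Nrxn2 of -0.21 (limma adjusted p = 0.385) and Nlgn2 of -0.00083 (limma adjusted p = 0.999). The genes at the ends of the GC range thus moved toward 0, while Nlgn3 (0.17) and Nrxn3 (-0.18) stayed near their values in the main fit. Whether base composition or another property that goes with it sets these differences was not tested.

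**Figure D3:**
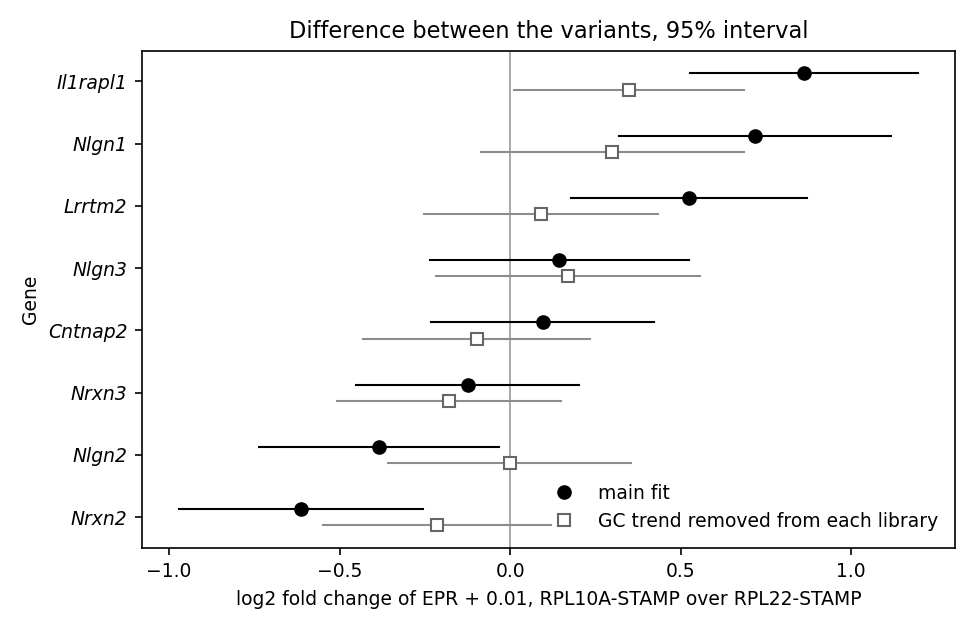
Log2 fold change of scaled EPR + 0.01, RPL10A-STAMP over RPL22-STAMP (horizontal axis), of the 8 tested genes (vertical axis), with 95% intervals, in the main fit (black circles) and with the GC trend removed from each library (open squares). Il1rapl1 went from 0.86 to 0.35 and Nrxn2 from -0.61 to -0.21.

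**Figure D4:**
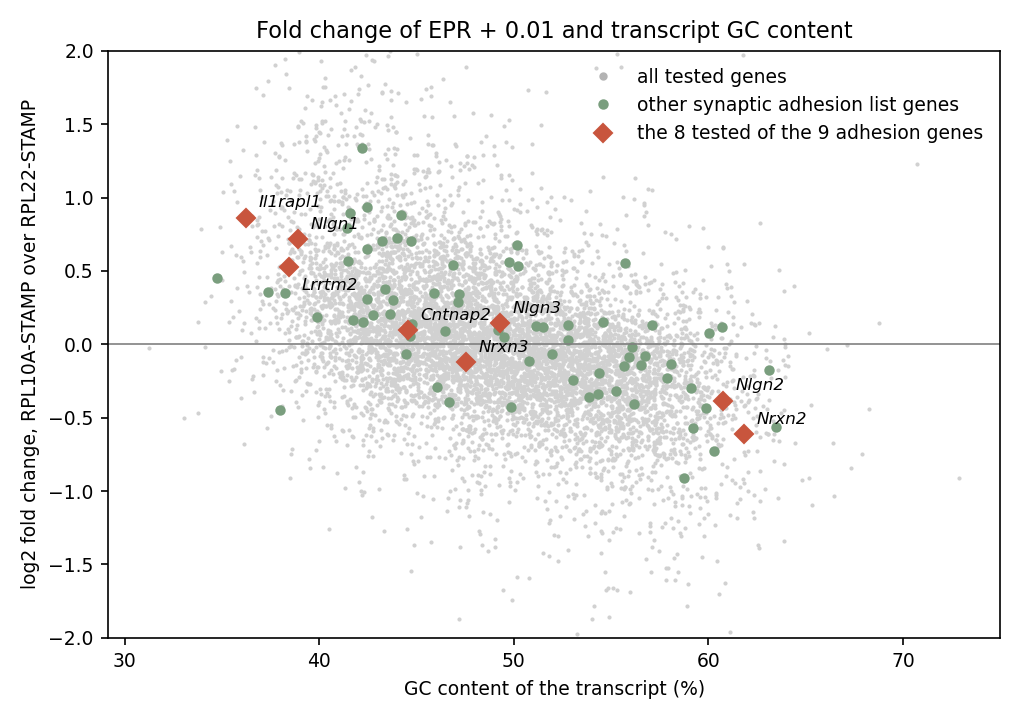
Log2 fold change of scaled EPR + 0.01 (vertical axis) against transcript GC content in percent (horizontal axis) for all tested genes (grey), other genes of the synaptic adhesion list (green) and the 8 tested adhesion genes (red). The red points fall from Il1rapl1 at 36.2% to Nrxn2 at 61.8%, and 27 genes lie beyond the vertical axis.

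The wider list of synaptic adhesion genes held 92 genes, of which 77 were edited in all 6 libraries and tested. Of these 16 passed the test by limma (20.8%), 12 with the higher value for RPL10A-STAMP and 4 for RPL22-STAMP. Over all 8046 tested genes 14.3% passed, 8.51% and 5.77% by direction. The median log2 fold change of the list was 0.12, against -0.01 over all tested genes. Without the 9 genes described above, 13 of 69 passed (18.8%, against the 14.3% of all genes), 10 higher with RPL10A-STAMP and 3 the other way. The 12 genes higher with RPL10A-STAMP had a GC content of 36.2% to 50.2%, and the 4 higher with RPL22-STAMP of 58.7% to 61.8%.

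Among neurexins and their partners, 5 of 16 tested genes passed (31.2%, where 14.3% of all tested genes did), 3 of them higher with RPL10A-STAMP (8.51% of all) and the other 2 with RPL22-STAMP (5.77% of all). Beside the neurexins and neuroligins, the MDGA pair passed in opposite directions. MDGA proteins are membrane-anchored and bind neuroligins in a way that blocks neurexin. Mdga2 had an EPR of 0.0330, 0.0483 and 0.0640 in RPL10A-STAMP and 0.00772, 0.00883 and 0.0103 in RPL22-STAMP libraries, a log2 fold change of 1.33 (SE 0.16, limma adjusted p = 0.00472). Mdga1 had an EPR of 0.0125, 0.00939 and 0.0185 in RPL10A-STAMP and 0.0214, 0.0342 and 0.0256 in RPL22-STAMP libraries, a log2 fold change of -0.91 (SE 0.16, limma adjusted p = 0.0148). For either gene all libraries of one variant lay above those of the other. The remaining 11 did not pass, Nlgn2, Nlgn3, Nrxn3 and Lrrtm2 among them.

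Of the LAR-type receptor phosphatases and their ligands 4 of 17 passed (23.5%, against 14.3% of all genes). Beside Il1rapl1 these were Lrfn5 (0.88) and Slitrk5 (0.53), leucine-rich repeat ligands that bind the phosphatases from the postsynaptic side, and the phosphatase Ptprs itself (-0.73), with limma adjusted p of 0.0137, 0.0408 and 0.0479. Other ligands of the group had negative fold changes that did not pass, such as Lrfn1 (-0.57) and Slitrk2 (-0.45), with limma adjusted p of 0.205 and 0.183. In the latrophilin system 3 of 10 passed, again against 14.3% of all genes. The latrophilin genes Adgrl2 (0.54) and Adgrl1 (-0.57) went in opposite directions and the teneurin gene Tenm1, whose product binds latrophilins, was at 0.93, with limma adjusted p of 0.0495, 0.0239 and 0.0405. Exons on the opposite strand covered 12.9% of the exonic bases of Adgrl1 and 8.25% of those of Tenm1.

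Shares in the remaining groups lay near or below the 14.3% of all tested genes. In the CNTNAP and contactin family 1 of 8 passed (12.5%), the contactin gene Cntn4 (0.90, limma adjusted p = 0.0400). Among SynCAM, nectin and other immunoglobulin or cadherin genes 2 of 15 passed (13.3%), the SynCAM gene Cadm2 (0.70, limma adjusted p = 0.0156) and the cadherin gene Cdh8 (0.65, limma adjusted p = 0.0245). Of the cytoplasmic partners 1 of 9 passed (11.1%), Lin7a (0.72, limma adjusted p = 0.0400), whose product forms a scaffold with CASK, and of the tested genes of the netrin-G system none did by limma, with 1 at an unadjusted p below 0.05. With the GC trend removed, 6 of the 77 genes of the list passed by limma (7.79%), where 8.25% of all genes did. Of the 6, 4 were shared with the 16, Mdga2, Lrfn5 and Slitrk5 among these, while Magi2 and Slitrk2 were gained. Slitrk2 was then the 1 gene higher with RPL22-STAMP, and the calls of Ptprs, Adgrl1, Mdga1 and Nrxn2 were lost. Without a library factor the list had 16 calls as well, 12 of them shared, but all were higher with RPL10A-STAMP. In that setting the median over all tested genes was 0.18, and 88.1% of all calls were higher with RPL10A-STAMP against 59.6% with the factor.

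**Figure D5:**
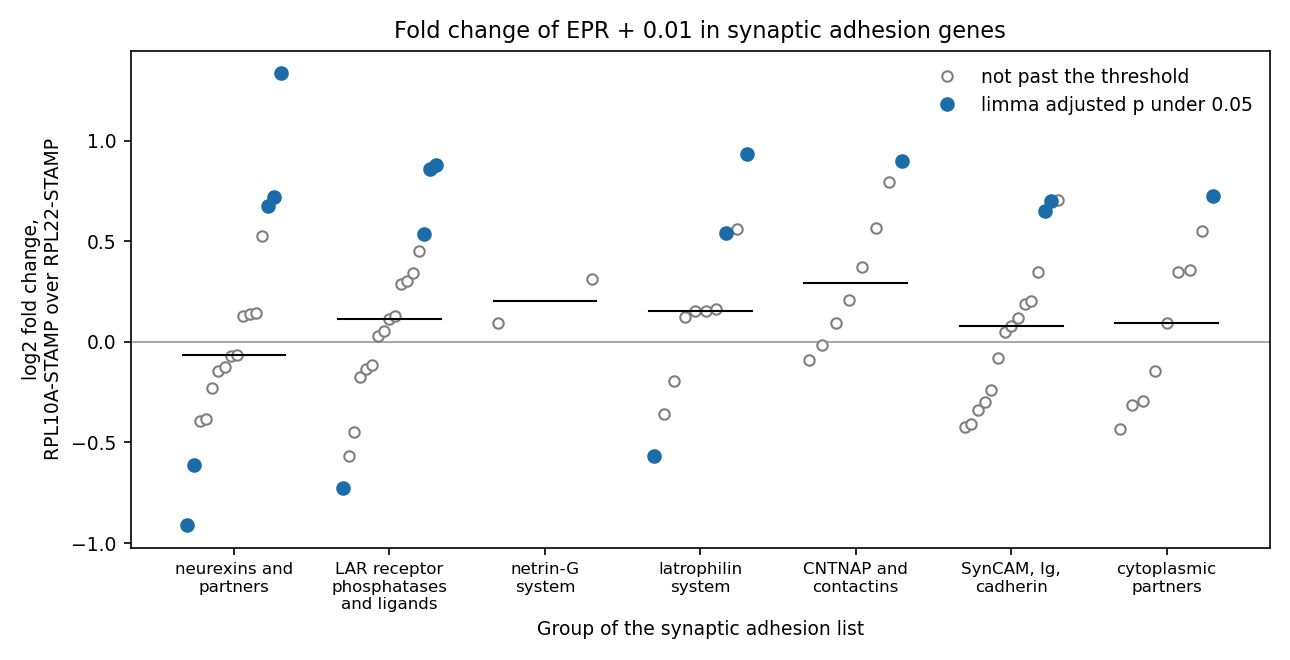
Log2 fold change of scaled EPR + 0.01, RPL10A-STAMP over RPL22-STAMP (vertical axis), of the 77 tested genes of the synaptic adhesion list in 7 groups (horizontal axis). Filled points passed the test by limma, open points did not, and bars give the group medians, which lie between -0.07 and 0.29.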

How the data were processed

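The 6 libraries, 3 per variant, were sequenced by the authors, who aligned reads to mm10 with STAR, called C-to-U edits with SAILOR and counted reads with featureCounts. They deposited 1 table per library with the EPR ratio (edits over reads) of each gene. The annotation used is not given in the sources used here. Gene names (31011 of 31053 identifiers), transcript GC content, lengths and sequences came from GENCODE M21 (GRCm38). Scaling set the median EPR of the 8046 genes with edits in every library to the same level, the geometric mean of the 6 medians. limma 3.58.1 (R 4.3.3, variance trend) was fitted to log2 of scaled EPR + 0.01, with Benjamini-Hochberg adjustment over 8046 genes and a threshold of 0.05, and was tested on simulated data. Single genes as deposited were compared by an exact permutation test over 20 labelings. GC and length trends were removed with splines (4 degrees of freedom). Named genes were the 9 adhesion genes, list genes past the threshold and the nearest gene of each. The genes and lists were chosen with earlier results of these data known. Of the list genes past the threshold, 1 is counted but not reported by name here. Precision cannot be given per value since depth is unknown, and no pair of libraries was a duplicate.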

Additional observations from a re-analysis of the deposited data

How the results depend on the processing

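The number of adhesion genes past the threshold, 3 of 8, fell to 1 with genes edited in at least 3 libraries or in at least 1 library, to 1 with the replicate block, to 0 with the GC trend removed and to 0 with the GC trend and the replicate block (by limma, 1 and 0 at an unadjusted p below 0.05), to 2 with the length trend removed, and ranged from 0 to 3 when a library was left out. The number over all genes, 1149, became 754, 569, 603, 663, 227 and 1130 in the same order of settings, and 369 to 873 without a library. For the synaptic adhesion list, 12 genes higher with RPL10A-STAMP became 6, 5, 4, 5, 1 and 8 (2 to 8 without a library). The 4 higher with RPL22-STAMP became 2, 1, 1, 1, 1 and 4 (1 to 2 without a library) and 0 without a library factor. The share of the list that passed by limma was 6.49% with the replicate block, where 7.49% of all tested genes did. With the length trend removed it was 15.6%, where 14.1% did. Signs reversed for Nrxn3 without a library factor (0.093), for Nlgn3 with the length trend removed (-0.013) and for Cntnap2 with quantile normalization (-0.0096), the length trend (-0.088), the GC trend (-0.10) and the GC trend with the replicate block (-0.10), all without passing the test. The variant difference of Nlgn2 over Nlgn3 went from -0.94 to -0.52 with EPR + 0.01, and the median percentile of the 9 genes from 56.4 to 34.3 per kb of exonic length. The causes were not tested, except that dividing by length and adding a constant change the quantity itself. Of 19 alternatives, the calls held in 15 for Il1rapl1, in 8 for Nlgn1 and in 8 for Nrxn2, and Lrrtm2 and Nlgn2 passed in none. Deviations of same-numbered libraries after scaling correlated at 0.0437, 0.0464 and -0.00546. Those of libraries with different numbers correlated at -0.0486 to 0.00406. Scaling removes any level that paired libraries share, so these values do not settle whether the replicate numbers pair the libraries. Without read counts the counting error of low values such as those of Lrrtm1 is unknown, and 3 libraries per variant limit the precision of every fold change.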
